A study of Mus musculus with 18 samples.

Results

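Receptors for sphingosine-1-phosphate (S1P) were followed from the naive B cell through the germinal center to the plasma cell of the bone marrow, in mice whose B lineage had or lacked the DNA methyltransferases DNMT3A and DNMT3B. The genes were S1pr1, S1pr2, S1pr3 and S1pr4, which were 4 of the 21761 genes in the expression table, and all 4 passed the filter on low values that left 11522 genes to be tested. The family was chosen by its symbols because the study named S1pr4 among the genes that were higher in Dnmt3-deficient plasma cells. The plasma cell values of the 2 genotypes therefore selected S1pr4, and they are given below as a description with no test. A further family member in the table, S1pr5, was at 1 read in each of 2 libraries and 0 in the other 16, and it was not tested.

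S1P is a lipid that is abundant in blood and lymph and scarce inside lymphoid tissue, and its receptors are G protein-coupled receptors that let lymphocytes read this gradient. S1PR1 couples to Gi and draws lymphocytes out of lymphoid organs towards S1P. S1PR2 couples to G12 and G13, opposes migration towards S1P and helps to hold germinal center B cells in the follicle. S1PR3 couples to several G proteins and has been linked to the positioning of marginal zone B cells, whereas S1PR4 is found mainly on hematopoietic cells.

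RNA was taken from 5000 sorted cells per library, with 3 libraries in each of 6 groups. Naive B cells (nB) were B220+ GL7- Fas- lymph node cells of mice that had not been immunized. Germinal center B cells (GCB) were sorted from lymph nodes as positive for B220, GL7, Fas and the antigen phycoerythrin (PE), and plasma cells (BMPC) were CD138+ bone marrow cells, both 30 days after immunization with PE in complete Freund's adjuvant. Each GCB sample pooled 2 mice, and every cell type included libraries of both sexes. Mice were 8 to 12 weeks old when experiments began, and all carried the strain label B6;129S4-Dnmt3atm3.1Enl Dnmt3btm5.1Enl/Mmnc. Dnmt3-sufficient mice were Dnmt3afl/flDnmt3bfl/fl, with floxed alleles and no Cre. Dnmt3-deficient mice were Dnmt3afl/flDnmt3bfl/fl with a Cre allele that is expressed in B lineage cells from an early bone marrow stage.

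Reads on genes numbered 6692516 to 8987922 per nB library and 7644544 to 8903872 per GCB library. BMPC libraries were shallower, at 1355231 to 3803197, and there a single read weighed more. The sorted cell types carried their markers, and BMPC libraries also held markers of other marrow cells, which are given below. Over 7 plasma cell markers the summed FPKM (fragments per kilobase of exon, scaled to the reads in the library) was 18915 to 51504 in BMPC and 312 to 1520 elsewhere, and over 7 GCB markers it was 1202 to 1418 in GCB and 18.5 to 83.5 elsewhere. Whole-gene FPKM of Dnmt3a and Dnmt3b did not pass the test between genotypes in any cell type (adjusted p from 0.401 to 1, limma), and it sums exons inside and outside the floxed parts, so it does not check the deletion.

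The promoter sequences of the family are shown because DNMT3A and DNMT3B methylate cytosines mainly in CG dinucleotides, and the receptors differed widely in how many their promoters hold. The promoter table from RefSeq (build GRCm38.p6) matched 3 of the 4 receptors, S1pr2, S1pr3 and S1pr4. The 250 bases before the annotated start of each are given 5′ to 3′ on the strand of the gene, with CG in capitals. The windows are chr10:81500138-81500387 on the minus strand for S1pr4, chr9:20976794-20977043 on the minus strand for S1pr2 and chr13:51408368-51408617 on the plus strand for S1pr3.
S1pr4: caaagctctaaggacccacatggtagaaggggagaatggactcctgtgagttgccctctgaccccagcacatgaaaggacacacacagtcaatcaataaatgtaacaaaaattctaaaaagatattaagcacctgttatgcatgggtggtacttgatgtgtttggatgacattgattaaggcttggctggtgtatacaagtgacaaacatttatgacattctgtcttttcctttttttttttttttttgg
S1pr2: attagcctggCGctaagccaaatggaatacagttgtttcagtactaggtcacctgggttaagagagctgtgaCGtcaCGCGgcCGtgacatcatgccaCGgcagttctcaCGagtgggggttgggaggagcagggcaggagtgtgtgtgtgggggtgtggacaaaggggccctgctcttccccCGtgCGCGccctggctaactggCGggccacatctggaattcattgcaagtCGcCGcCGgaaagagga
S1pr3: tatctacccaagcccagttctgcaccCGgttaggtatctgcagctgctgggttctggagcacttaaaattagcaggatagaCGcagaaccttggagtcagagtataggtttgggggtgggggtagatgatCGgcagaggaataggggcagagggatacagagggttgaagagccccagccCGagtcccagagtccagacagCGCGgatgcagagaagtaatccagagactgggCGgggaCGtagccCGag
The S1pr4 window held 0 CG, as did 7.86% of the 32841 promoters of the same length, whose median was 6. S1pr2 held 14, and 29.4% of promoters held as many or more. S1pr3 held 9, and 40.3% of promoters held as many or more. CG reads the same on both strands, and the count is a description of these letters. The window of S1pr4 was found once in the genome build of the expression data, NCBIM37 (mm9), where the RefSeq start lies 430 bases upstream of the start in GENCODE vM1, and the 250 bases before that second start also held 0 CG.

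S1pr1 (Entrez 13609, chr3:115413351-115417973, minus strand) was the main S1P receptor transcript of nB and was low in GCB and near 0 in BMPC. Its FPKM in the 3 Dnmt3-sufficient nB libraries was 93.8, 87.5 and 99.9, and in the 3 Dnmt3-deficient ones 95.5, 90.4 and 122. These nB values overlapped between genotypes, and S1pr1 stood among the top 5.58 to 8.49% of tested genes there. In GCB the Dnmt3-sufficient libraries had 2.52, 0.0432 and 6.51 FPKM, and the Dnmt3-deficient ones 0.634, 6.41 and 5.42. Each GCB library lay below every nB library, and the second Dnmt3-sufficient GCB library stood lowest with 1 read. In BMPC 1 of the 6 libraries had S1pr1 reads, Dnmt3-sufficient replicate 2 with 7 reads (0.608 FPKM), and the other 5 had 0.

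The fall of S1pr1 passed the test in both genotypes. From nB to GCB it was -4.97 ± 0.65 (SE, n = 3 per group) on the log2(FPKM + 1) scale in Dnmt3-sufficient cells and -4.59 ± 0.65 in Dnmt3-deficient cells, with adjusted p of 4.79e-05 and 0.000115 (limma, two-sided, Benjamini-Hochberg over 11522 genes). From nB to BMPC the changes were -6.34 ± 0.65 and -6.68 ± 0.65, with adjusted p of 1.52e-06 and 1.03e-06 in limma. Against Dnmt3-deficient BMPC taken at 3 reads per library, the mean of Dnmt3-deficient nB was at least 174-fold higher. Between GCB and BMPC the drop was called in Dnmt3-deficient cells (-2.09 ± 0.65, adjusted p = 0.0202 in limma) and not in Dnmt3-sufficient cells (-1.37 ± 0.65, adjusted p = 0.126 in limma, 95% interval -2.74 to 0.0044). The lower levels of S1pr1 were thus less firmly ordered than its nB level. That call was lost without Dnmt3-deficient GCB replicate 2 (adjusted p = 0.0977 in limma) or replicate 3 (0.0845), and without Dnmt3-sufficient GCB replicate 2 the Dnmt3-sufficient drop passed (-2.13, adjusted p = 0.0211 in limma).

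S1pr2 (Entrez 14739, chr9:20770396-20781237, minus strand) was the receptor of the germinal center. Its FPKM was 95.5, 138 and 98.0 in Dnmt3-sufficient GCB and 84.5, 112 and 80.0 in Dnmt3-deficient GCB, from 1982 to 2974 reads per library. The genotypes overlapped, and the gene stood among the top 6.30 to 10.5% of tested genes. It had 0 reads in all 6 BMPC libraries. In nB the Dnmt3-sufficient libraries had 3.77, 0.0929 and 5.77 FPKM, and the Dnmt3-deficient ones 0, 0.0506 and 0.604. Dnmt3-sufficient nB replicates 1 and 3, with 71 and 146 reads, lay above every Dnmt3-deficient nB library. The summed GCB markers of those 2 libraries were 66.5 and 28.2 FPKM, and those of the other 4 nB libraries were 45.3, 40.8, 39.3 and 81.3 FPKM. Their part in the S1pr2 values was not tested.

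From nB to GCB the rise of S1pr2 was 5.07 ± 0.55 on the log2(FPKM + 1) scale in Dnmt3-sufficient cells and 6.27 ± 0.55 in Dnmt3-deficient cells (SE, n = 3 per group), with adjusted p of 7.36e-06 and 9.05e-07 in limma. From GCB to BMPC it changed by -6.78 and -6.53 on the log2 scale, with adjusted p of 1.62e-07 and 2.18e-07 in limma. With BMPC at the limit of 3 reads per library, mean GCB levels were at least 313-fold higher in Dnmt3-sufficient cells and at least 145-fold higher in Dnmt3-deficient cells. The smaller step between nB and BMPC was called in Dnmt3-sufficient cells (-1.71 ± 0.55, adjusted p = 0.0211 in limma), and it was lost without nB replicate 1 (-1.44, adjusted p = 0.0872) or nB replicate 3 (-1.19, adjusted p = 0.118). In Dnmt3-deficient cells nB and BMPC did not pass (-0.25 ± 0.55, adjusted p = 0.753 in limma, 95% interval -1.41 to 0.91).

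S1pr3 (Entrez 13610, chr13:51503987-51518166, plus strand) was also at its highest in GCB, at a lower level than S1pr2 per unit length. The Dnmt3-sufficient GCB libraries had 10.3, 17.8 and 13.9 FPKM, and the Dnmt3-deficient ones 9.66, 11.01 and 8.85. In nB the values were 5.46, 0.0292 and 5.81 in Dnmt3-sufficient and 6.08, 2.54 and 5.98 in Dnmt3-deficient libraries. Every GCB library lay above every nB library, and Dnmt3-sufficient nB replicate 2 stood apart with 1 read. In BMPC, Dnmt3-sufficient replicate 1 had 19 reads (1.93 FPKM) and the other 5 libraries had 0.

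The step of S1pr3 from nB to GCB was 2.04 ± 0.64 on the log2(FPKM + 1) scale in Dnmt3-sufficient cells (SE, n = 3 per group), which was called with an adjusted p of 0.0400 in limma, and 0.95 ± 0.64 in Dnmt3-deficient cells, which was not (adjusted p = 0.417, 95% interval -0.41 to 2.31). The call rested on the nB library with 1 read: without it the change was 1.15 and the adjusted p 0.221, and leaving out any 1 of the 3 Dnmt3-sufficient GCB libraries also ended it (adjusted p from 0.0696 to 0.133). From GCB to BMPC S1pr3 fell in both genotypes, with changes of -3.36 and -3.43 on the log2 scale with adjusted p of 0.000889 and 0.000661 in limma. From nB to BMPC it fell in Dnmt3-deficient cells (-2.48 ± 0.64, adjusted p = 0.00618 in limma). In Dnmt3-sufficient cells that change was -1.32 ± 0.64 with an adjusted p of 0.115, which became 0.00601 without nB replicate 2 and 0.0417 without BMPC replicate 1.

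S1pr4 (Entrez 13611, chr10:80961223-80962452, minus strand, in GENCODE vM1) was the second receptor of nB. Its FPKM there was 47.1, 36.2 and 49.2 in Dnmt3-sufficient and 68.9, 47.3 and 58.5 in Dnmt3-deficient libraries. In GCB it was 6.99, 10.4 and 7.998 in Dnmt3-sufficient and 12.2, 8.43 and 2.79 in Dnmt3-deficient libraries. All GCB values lay below all nB values, and the genotypes overlapped in both cell types. From nB to GCB S1pr4 fell, with changes of -2.26 on the log2(FPKM + 1) scale in Dnmt3-sufficient cells and -2.91 in Dnmt3-deficient cells (SE 0.44 each, n = 3 per group), with adjusted p of 0.00178 and 0.000208 in limma. The mean was 5.21 times and 7.47 times higher in nB than in GCB.

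In BMPC, where S1pr4 was chosen for its difference, the Dnmt3-sufficient libraries had 0.190, 0 and 0.115 FPKM and the Dnmt3-deficient ones 13.3, 11.1 and 13.6 FPKM. These values came from 1, 0 and 1 reads and from 52, 36 and 74 reads. The groups did not overlap. With the Dnmt3-sufficient libraries at 3 reads each, the Dnmt3-deficient mean was at least 30.5-fold higher. Set beside the other cell types of the same genotype, the Dnmt3-sufficient BMPC mean of 0.102 ± 0.096 FPKM (SD, n = 3) stood below the GCB mean of 8.48 ± 1.77 and the nB mean of 44.2 ± 6.96. The Dnmt3-deficient BMPC mean of 12.7 ± 1.38 FPKM lay 1.63 times above that of GCB (7.80 ± 4.72) and at 0.218 of that of nB (58.2 ± 10.8). In the Dnmt3-deficient libraries BMPC overlapped with GCB, whereas nB lay above both. In bulk libraries, more cells with S1pr4 RNA and more S1pr4 RNA per cell cannot be told apart.

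**Figure D1:**
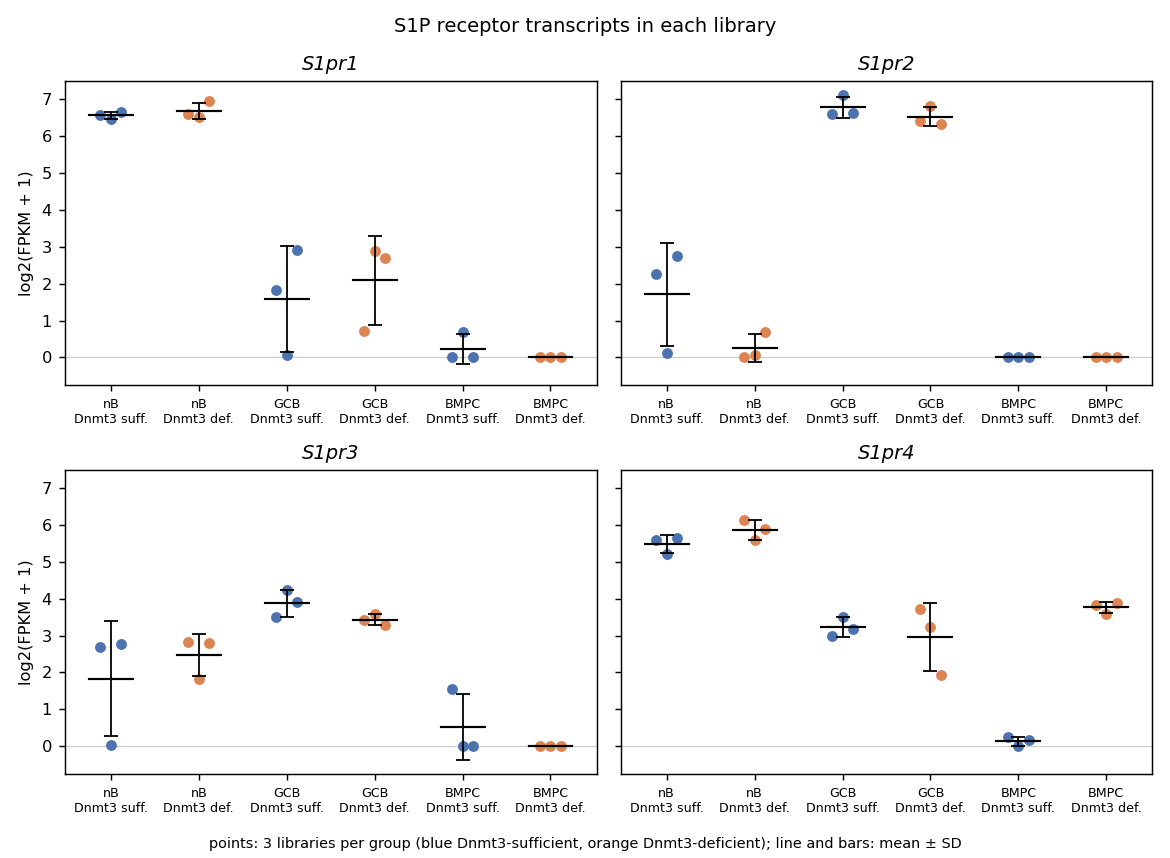
Expression of S1pr1, S1pr2, S1pr3 and S1pr4 in 18 libraries, with the log2(FPKM + 1) level on the y axis and the 6 groups on the x axis (blue, Dnmt3-sufficient; orange, Dnmt3-deficient; lines and bars, mean ± SD of 3 libraries). S1pr1 and S1pr4 are highest in nB, S1pr2 and S1pr3 in GCB, and in BMPC the 3 Dnmt3-deficient libraries of S1pr4 lie at 11.1 to 13.6 FPKM, while S1pr3 reaches 1.93 FPKM and S1pr1 0.608 FPKM in 1 Dnmt3-sufficient library each.

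The other 3 receptors did not accompany S1pr4 in BMPC. In the 3 Dnmt3-deficient libraries S1pr1, S1pr2 and S1pr3 were all at 0 reads, so S1pr4 made up 100% of the summed receptor FPKM, from 36 to 74 reads. The Dnmt3-sufficient BMPC libraries held 20, 7 and 1 receptor reads in all, and each was led by another gene, S1pr3, S1pr1 and S1pr4 in turn. Shares in those 3 libraries rest on too few reads to be compared. In nB, S1pr1 gave 56.0 to 70.7% of the summed FPKM and S1pr4 29.3 to 40.4%. In GCB, S1pr2 gave 77.5 to 83.0%, S1pr3 7.997 to 11.004%, S1pr4 2.88 to 11.4% and S1pr1 0.0259 to 5.59%. The sum itself ranged from 124 to 187 FPKM in nB and from 97.1 to 167 FPKM in GCB. In BMPC it lay between 0.115 and 13.6 FPKM.

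**Figure D2:**
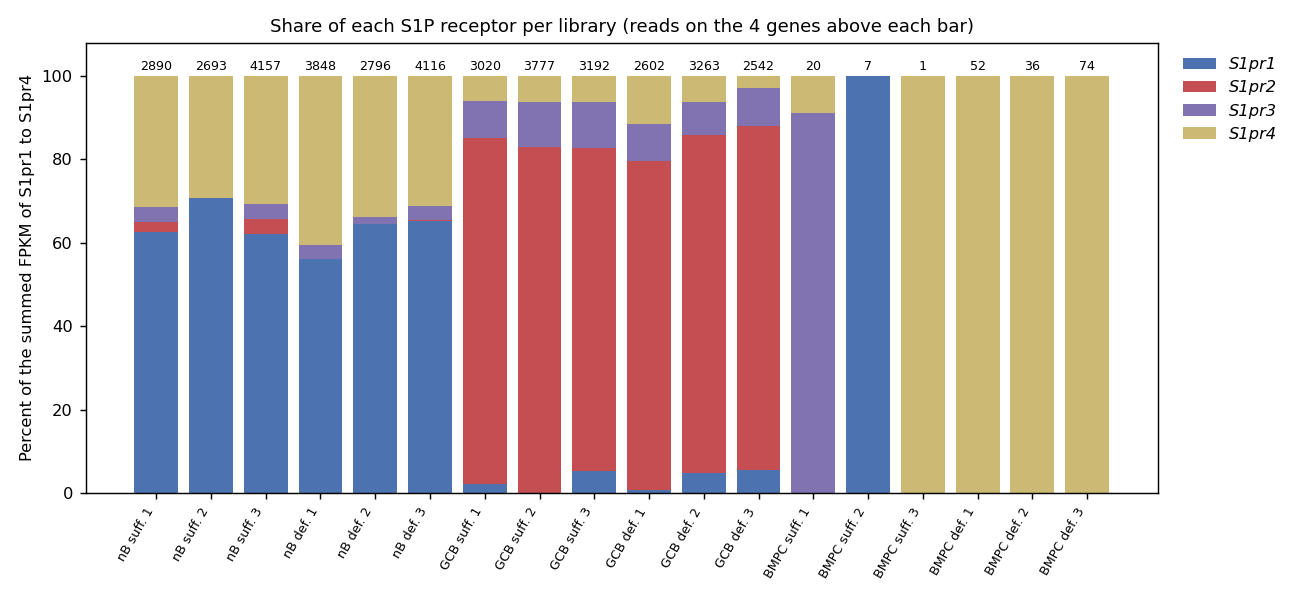
Share of each receptor in the summed FPKM of S1pr1 to S1pr4 (y axis, percent) in each of the 18 libraries (x axis), with the number of reads on the 4 genes above each bar. The nB bars are mostly S1pr1 and S1pr4, the GCB bars mostly S1pr2, and the Dnmt3-deficient BMPC bars S1pr4 alone, on 36 to 74 reads.

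Markers of other cells were read in the same BMPC libraries, because S1pr4 is also expressed by other blood cells. Of 8 mature B cell genes, Cr2 and Pax5 were at 0 reads in all 6 BMPC libraries, and Cd22 was at 0 in 5 and at 10 reads in 1. The summed FPKM of those 8 genes was 1172 to 1657 in Dnmt3-sufficient and 1733 to 1846 in Dnmt3-deficient BMPC, without overlap. Most of it was Cd79a (510 to 951 and 841 to 997 FPKM) and Cd79b (649 to 968 and 704.3 to 942 FPKM), which plasma cells also express. In nB the FPKM of S1pr1 was 1.39 to 2.42 times that of S1pr4 in each of the 6 libraries. In Dnmt3-deficient GCB, S1pr1 was at 0.634, 6.41 and 5.42 FPKM and S1pr4 at 12.2, 8.43 and 2.79. In Dnmt3-deficient BMPC S1pr1 had 0 reads. The part of B cells in the S1pr4 values of BMPC was not tested.

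Summed FPKM of 7 T cell markers was 86.8 to 207 in Dnmt3-sufficient and 120 to 219 in Dnmt3-deficient BMPC. In nB it was 58.8 to 135 and 99.0 to 156. Of the 7 markers, 5, 5 and 5 had reads in the Dnmt3-sufficient BMPC libraries and 5, 4 and 6 in the Dnmt3-deficient ones. Cd4 was at 0 in 5 of the 6 BMPC libraries and Cd8a at 0 in 5 of 6. The T cell markers with reads were thus mostly Cd3e, Cd3d, Cd3g, Lck and Tcf7, and Cd4 and Cd8a do not stand for the list. Over 6 macrophage and monocyte markers the sums were 1039 to 1576 and 1706 to 2905, without overlap, and Ly6c2, which plasma cells can also express, gave most of it. Csf1r had 71 reads in Dnmt3-deficient replicate 2 and 1 read in a Dnmt3-sufficient library, Adgre1 had 97 reads in Dnmt3-deficient replicate 3 alone, and in Dnmt3-deficient replicate 1 Csf1r, Adgre1 and Lyz2 were all at 0 while S1pr4 was at 13.3 FPKM. Sums over 8 nB markers (109.5 to 218 and 108.5 to 172), 7 GCB markers (18.5 to 83.5 and 34.0 to 57.4), 7 neutrophil markers (63.4 to 526 and 9.37 to 582), 5 early B markers (341 to 627 and 308 to 574) and 5 endothelial markers (1.501 to 10.6 and 1.59 to 16.9) overlapped between genotypes. The sum over 4 NK cell markers was lower in Dnmt3-deficient BMPC (0 to 9.76 against 14.7 to 25.8). Only 1 of these 4 had reads in each Dnmt3-sufficient BMPC library, and 1, 0 and 0 in the Dnmt3-deficient ones. The sum over 5 erythroid markers was also lower in Dnmt3-deficient BMPC (182 to 1157 against 1473 to 2893). That over 7 plasma cell markers was higher there (33952 to 51504 against 18915 to 29493). Cells staining for CD11b, CD11c, CD90.2 or Ly6-G had been gated out in the sort, and the part of other cells in the S1pr4 values was not tested. The plot of plasma cell libraries sets S1pr4 beside Ms4a1, Cd79a, Cd79b and the plasma cell marker Sdc1.

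**Figure D3:**
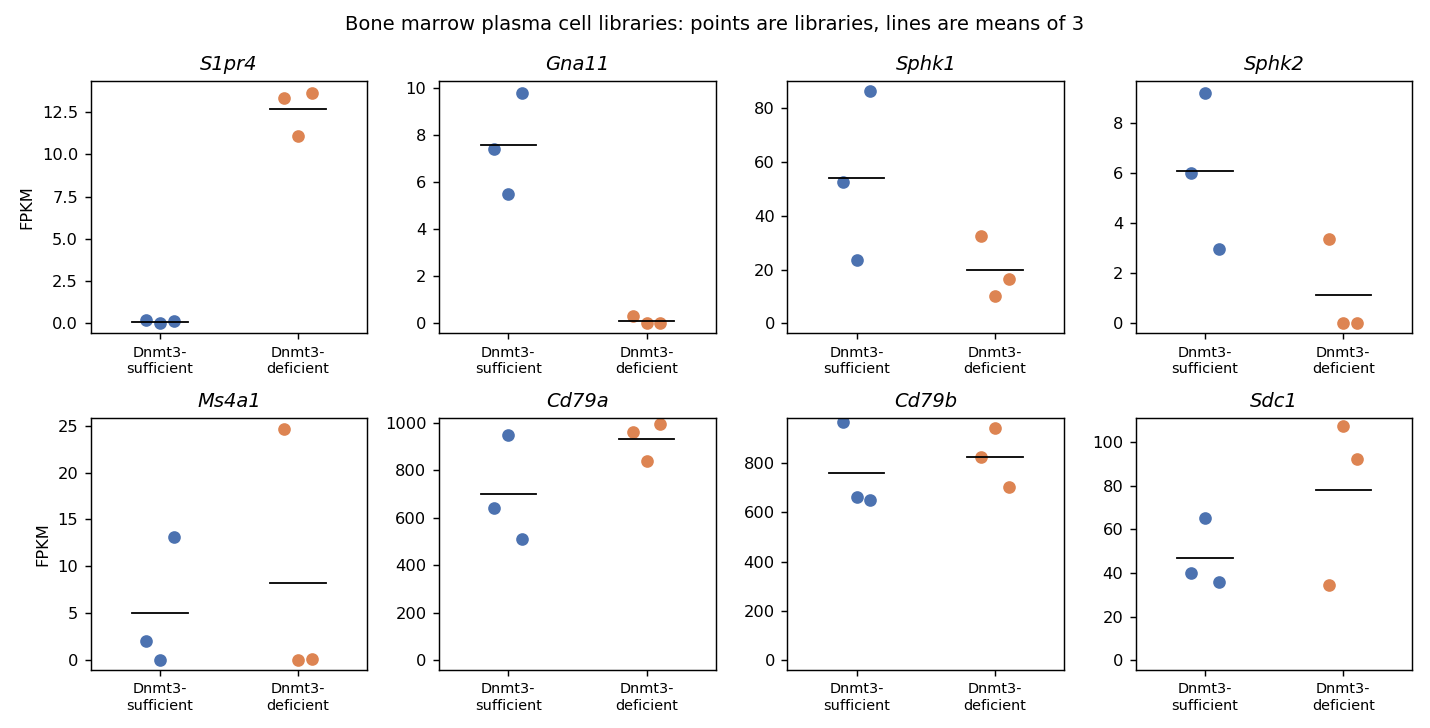
FPKM (y axes, linear, each with its own scale) of S1pr4, of Gna11, Sphk1 and Sphk2 of the S1P pathway and of the B cell and plasma cell genes Ms4a1, Cd79a, Cd79b and Sdc1 in the 6 BMPC libraries (points; lines, means of 3). S1pr4 and Gna11 separate the genotypes in opposite directions, whereas the points for Ms4a1, Cd79a, Cd79b and Sdc1 overlap.

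Outside plasma cells, no receptor passed the test between genotypes. In nB 0 of 4 were called, where the share called over all genes was 0.0521%, and 1 of 4 had an unadjusted p below 0.05. That gene was S1pr2, at -1.46 ± 0.55 on the log2(FPKM + 1) scale (unadjusted p = 0.0168, adjusted p = 1 in limma). The changes for the others were 0.12 for S1pr1, 0.65 for S1pr3 and 0.39 for S1pr4, and the 95% interval for S1pr4 was -0.54 to 1.32. In GCB 0 of 4 were called against 0.0% of all genes (0 of 11522 in limma, with 124 at an unadjusted p below 0.05, and 2 in voom on recovered reads), and 0 of 4 had an unadjusted p below 0.05. Changes there ran from -0.44 for S1pr3 to 0.50 for S1pr1, and the interval for S1pr4 was -1.20 to 0.66. The 95% interval for S1pr2 in nB was -2.63 to -0.30, before any adjustment for the number of genes, and the lower bound for S1pr3 in GCB was -1.80. The upper bounds reached 1.87 for S1pr1 in GCB and 2.01 for S1pr3 in nB. Changes up to those sizes in either direction were not excluded for these genes. The step from nB to GCB also did not differ detectably between genotypes: 0 of 4 interactions were called against 0.0% of all genes (0 of 11522 in limma and 0 in voom, with 204 at an unadjusted p below 0.05 in limma). The interaction for S1pr2 was 1.21 (95% interval -0.44 to 2.85), and that for S1pr3 was -1.09 (95% interval -3.02 to 0.83).

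Counts of receptors called between cell types are given beside the share of all genes called the same way. From nB to GCB in Dnmt3-sufficient cells 2 of the 4 rose, S1pr2 and S1pr3, where 7.22% of all genes did, and 2 fell, S1pr1 and S1pr4, where 6.93% did. In Dnmt3-deficient cells 1 rose, S1pr2, against 6.31% of all genes, and the same 2 fell against 6.61%. From nB to BMPC 2 of the 3 tested receptors fell in each genotype, where 27.6% of all genes fell in Dnmt3-sufficient and 30.6% in Dnmt3-deficient cells, and 0 rose, where 9.74% and 6.85% of all genes did. From GCB to BMPC 2 of 3 fell in Dnmt3-sufficient cells against 20.9% of all genes, and 3 of 3 in Dnmt3-deficient cells against 26.1%. None rose, where 6.67% and 6.14% of all genes did. The median of all tested genes was itself below 0 in BMPC, at -0.70 and -0.84 against nB and at -0.56 and -0.73 against GCB in Dnmt3-sufficient and Dnmt3-deficient cells.

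**Figure D4:**
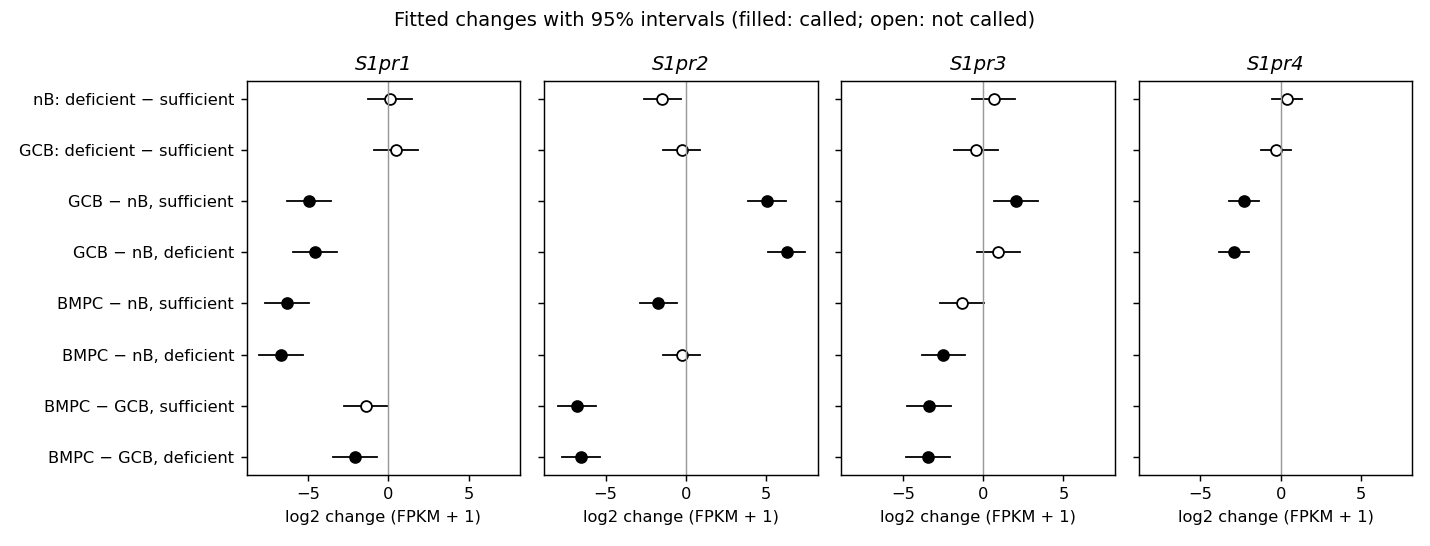
Fitted change on the log2(FPKM + 1) scale (x axis) with its 95% interval for each receptor and comparison (y axis) that was tested; filled points were called and open points were not. The genotype comparisons in nB and GCB are open for all 4 receptors, and S1pr4 has no points for BMPC because it was chosen on those values.

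The genes that make, carry and answer to S1P were counted over lists of 50 genes in the table, 46 of which were tested. These were 15 of synthesis, breakdown and release, 12 of G proteins and small GTPase signaling, 15 of receptor desensitization and internalization and 4 transcription factors that act upstream of trafficking genes. Between genotypes 0 of 46 were called in nB and 0 of 46 in GCB, with 1 and 0 at an unadjusted p below 0.05 in limma and 0 in both by voom. In BMPC 2 of 46 fell, where 2.65% of all genes fell, and 0 rose, where 1.34% did, and the list's median was 0.03 against -0.05 over all tested genes. The 2 were Gna11, the alpha subunit of G11, and Sphk2, a kinase that makes S1P.

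Gna11 was at 7.38, 5.50 and 9.80 FPKM in Dnmt3-sufficient BMPC and at 0.320, 0 and 0 in Dnmt3-deficient BMPC, from 62, 80 and 136 reads and from 2, 0 and 0 reads. The groups did not overlap, and the change was -2.93 ± 0.40 on the log2(FPKM + 1) scale (adjusted p = 0.000417 in limma). It was lost in a fit to the 2 BMPC groups alone (adjusted p = 0.678) and with a quality weight per library (0.145). Sphk2 was at 6.02, 9.22 and 2.98 FPKM against 3.38, 0 and 0, so 1 Dnmt3-deficient library lay within the range of the other group. Its change of -2.01 ± 0.56 was just past the threshold (adjusted p = 0.0498 in limma), and leaving out any 1 of Dnmt3-sufficient BMPC replicates 1 and 2 or Dnmt3-deficient replicates 2 and 3 ended the call, with adjusted p from 0.0729 to 0.122. Ebf1, a B lineage transcription factor, was named by the study for DNA methylation, chromatin accessibility and expression in Dnmt3-deficient BMPC. The study tested expression with edgeR, a model of counts. Here, on the log2(FPKM + 1) scale, Ebf1 did not pass between genotypes in BMPC (1.29 ± 0.54, adjusted p = 0.179 in limma).

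From nB to GCB 6 of the 46 pathway genes rose and 6 fell in Dnmt3-sufficient cells, and 5 rose and 6 fell in Dnmt3-deficient cells, with list medians of -0.30 and -0.32 against -0.11 and -0.13 over all tested genes. Of all genes 7.22% rose and 6.93% fell in the first and 6.31% and 6.61% in the second. Regulators of G protein signaling (RGS proteins), which shorten the signal of G protein-coupled receptors, stood at both ends. Rgs13 went from 0 to 8.59 FPKM in nB to 231 to 336 in GCB, by 6.32 and 5.48 on the log2(FPKM + 1) scale with adjusted p of 3.48e-06 and 1.63e-05 in limma. Rgs1 rose by 6.59 and 5.06, with adjusted p of 3.25e-05 and 0.000429. Rgs18, in contrast, fell, at -5.04 and -3.14, with adjusted p of 1.25e-05 and 0.00114.

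Among the genes of S1P supply, Ppap2a, a phosphatase that removes lipid phosphates, rose by 4.88 and 4.47 (adjusted p = 0.00732 and 0.0145 in limma), and the second call ended without Dnmt3-deficient GCB replicate 1 or 2 (adjusted p = 0.0569 and 0.0503). Spns2, an S1P exporter, fell, at -2.24 and -2.31, with adjusted p of 0.000812 and 0.000679 in limma. It had at most 1 read in each GCB library. Klf2, a transcription factor that drives S1pr1 in lymphocytes, was at 12.7 to 31.1 FPKM in nB and 1.18 to 5.12 in GCB. Its change was -2.68 ± 0.83 in Dnmt3-sufficient cells, called with an adjusted p of 0.0377 in limma, and -2.27 ± 0.83 in Dnmt3-deficient cells, not called (adjusted p = 0.0854). The Dnmt3-sufficient call was lost without any 1 of 5 of its 6 libraries, all but nB replicate 2, with adjusted p from 0.0559 to 0.147.

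In BMPC more pathway genes fell than rose, as did genes at large. Against nB 21 of 46 fell and 4 rose in Dnmt3-sufficient cells, and 20 fell and 3 rose in Dnmt3-deficient cells, with list medians of -1.05 and -1.42 against -0.70 and -0.84 over all tested genes. Of all genes 27.6% and 30.6% fell and 9.74% and 6.85% rose. Among these 12 G protein and GTPase signaling genes 7 and 6 fell and 0 rose, and all 4 upstream factors fell in both genotypes, beside those same shares of all genes. Ebf1 stood at -6.65 and -5.35, with adjusted p of 1.09e-07 and 1.44e-06 in limma, Bcl6 at -4.75 and -4.63, and Grk6, a kinase that desensitizes receptors, at -4.22 and -4.55. Sphk1, the second S1P kinase, went the other way. It was at 0 reads in 11 of the 12 nB and GCB libraries and at 9 reads in the other, against 23.7 to 86.4 FPKM in Dnmt3-sufficient and 10.2 to 32.6 FPKM in Dnmt3-deficient BMPC. Its change from nB was 5.40 ± 0.48 and 4.22 ± 0.48, with adjusted p of 3.47e-07 and 5.61e-06 in limma, and the genotypes overlapped in BMPC.

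Rgs10 also rose from nB to BMPC, by 5.13 and 4.33 (adjusted p = 1.17e-05 and 7.35e-05 in limma). Mfsd2b, an S1P exporter best known from erythrocytes and platelets, was called only in Dnmt3-sufficient BMPC (2.55 ± 0.98, adjusted p = 0.0479 in limma; 2.30 ± 0.98, adjusted p = 0.0712 in Dnmt3-deficient cells), and the difference between genotypes was not called (adjusted p = 1). That call ended without any 1 of 5 of its 6 libraries, all but BMPC replicate 2, with adjusted p from 0.0947 to 0.168, and under 6 other ways of processing. Its FPKM was 13.5, 0.319 and 15.3 in Dnmt3-sufficient and 0.149, 30.3 and 9.76 in Dnmt3-deficient BMPC, in libraries that also held the erythroid marker sums given above. Against GCB 14 pathway genes fell and 2 rose in Dnmt3-sufficient BMPC, and 17 fell and 3 rose in Dnmt3-deficient BMPC. Of all genes 20.9% and 26.1% fell and 6.67% and 6.14% rose, and the list medians of -0.79 and -0.78 stood beside -0.56 and -0.73 over all tested genes. Rgs13 fell, at -8.18 and -8.20, and so did Rgs1, at -6.63 and -5.07, while Rgs18 rose by 4.81 and 3.44 and Sphk1 by 5.61 and 4.22, all with adjusted p of 0.000242 or below in limma.

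**Figure D5:**
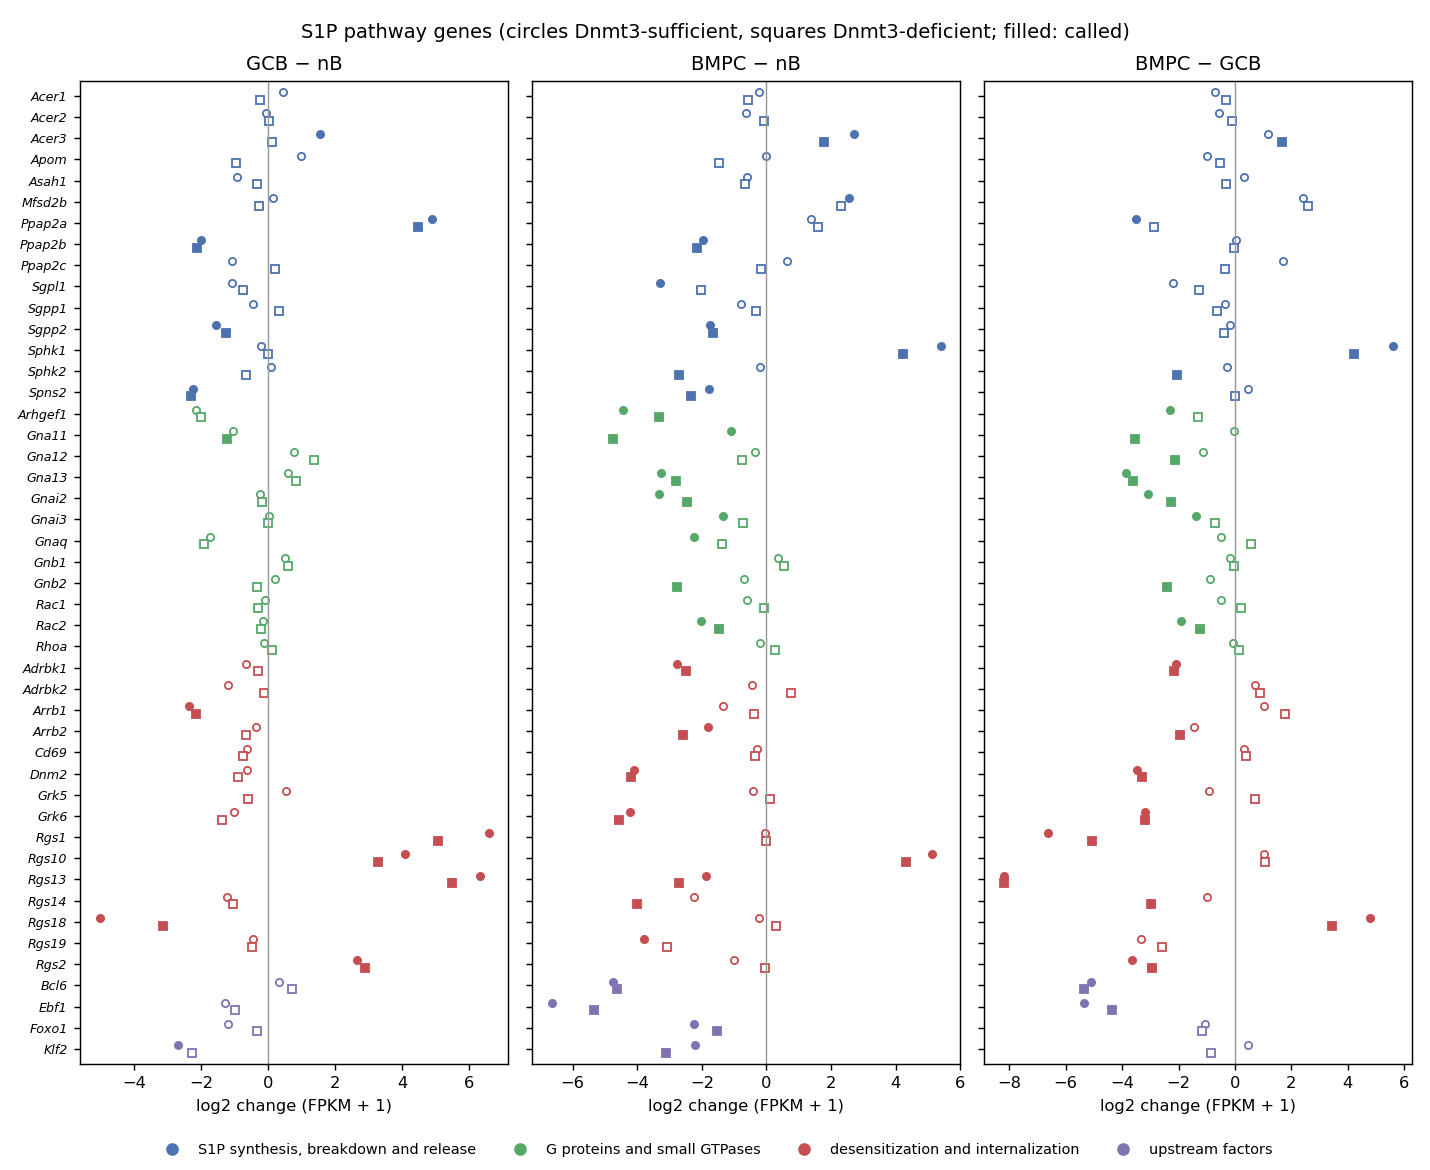
Change on the log2(FPKM + 1) scale (x axes) of 46 tested S1P pathway genes (y axis, coloured by role) between cell types, with circles for Dnmt3-sufficient and squares for Dnmt3-deficient cells and filled symbols for called changes. Most filled symbols in the BMPC panels lie to the left of 0, with 21 and 20 falls against nB, while Sphk1 lies to the right.

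The genes whose levels followed each receptor most closely over the 18 libraries were ranked by Pearson's r on log2(FPKM + 1), as a description in which the 3 cell types set most of the spread. For S1pr1 they were N4bp2l1 (r = 0.988), Rasgef1b (0.984) and Rhbdf2 (0.976), and for S1pr2 they included Aif1 (0.976) and Cenpe (0.976). For S1pr3 they were Mir568 (0.954), Cmtr2 (0.927) and Eif4h (0.925). Those of S1pr4 were P2ry10 (0.958), AB124611 (0.945) and Sfi1 (0.935). P2ry10, a receptor for lysophosphatidylserine, was at 0, 0.971 and 0.0925 FPKM in Dnmt3-sufficient and 7.81, 21.6 and 37.3 FPKM in Dnmt3-deficient BMPC, and AB124611 was at 0 in the first and at 26.3, 28.1 and 23.5 in the second. Neither group overlapped with the other for these genes, which were picked by their likeness to S1pr4 in the same libraries.

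The nearest genes on either side of S1pr4 were not called between genotypes in BMPC. On NCBIM37, Ncln ends 2086 bases to its left and Gna15, another G protein alpha subunit, starts 2599 bases to its right. In BMPC Ncln was at 17.9, 7.31 and 17.8 FPKM in Dnmt3-sufficient and 7.66, 6.92 and 2.91 FPKM in Dnmt3-deficient libraries. Gna15 was at 6.88, 1.02 and 7.25 against 0.895, 0.359 and 1.07. Their changes were -1.15 ± 0.50 and -1.54 ± 0.61, opposite in sign to the S1pr4 difference of 3.63, with adjusted p of 0.201 and 0.154 in limma. Between cell types Gna15 fell from nB to GCB in Dnmt3-sufficient cells, as S1pr4 did (-2.21 ± 0.61, adjusted p = 0.0195 in limma), and was not called in Dnmt3-deficient cells (-1.08, adjusted p = 0.300). Ncln was not called there (-1.08 and -1.46, adjusted p = 0.178 and 0.0629 in limma). From nB to BMPC both were called lower in Dnmt3-deficient cells, Ncln at -1.98 and Gna15 at -2.92 (adjusted p = 0.00533 and 0.00132 in limma), beside an S1pr4 value of -2.10 given without a test. Dnmt1, the maintenance methyltransferase and the left neighbour of S1pr2 at 13079 bases, was at 52.2 to 85.4 FPKM in GCB and 9.59 to 18.4 in nB. In BMPC it was at 13.3, 5.70 and 18.5 FPKM in Dnmt3-sufficient and 1.49, 3.58 and 6.17 in Dnmt3-deficient libraries, a change of -1.51 ± 0.48 that did not pass (adjusted p = 0.0786 in limma).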

How the data were processed

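RNA-seq libraries (SMARTer cDNA, 13 cycles; Nextera, 12 cycles) were mapped by the authors to mm9 with TopHat, keeping unique hits, and reads on UCSC KnownGenes exons were counted with summarizeOverlaps. Strand use is not stated. The submitters' processing notes name Picard, R 3.2.2 and edgeR 3.12.1. The deposited FPKM values, computed by the authors, were used. The deposited fold changes and adjusted p-values of the authors' own comparisons (54 columns) were not used. FPKM times exon length gave whole reads for 100% of values within a tolerance of 0.01.

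Groups, sex and titles came from the labels. By the study's methods each nB and BMPC library came from its own mouse and each GCB library from its own pool. limma 3.58.1 (R 4.3.3) was fitted to log2(FPKM + 1) with 1 mean per group over 18 libraries and a mean-variance trend, two-sided, on the 11522 genes that exceeded 1 FPKM in 2 or more libraries. Calls needed an adjusted p up to 0.05 together with a log2 change of 1 or more either way, a scale that understates changes of low genes. The fit was tested on counts simulated from GCB levels, with large planted changes between the GCB genotypes. That simulation did not cover small changes or the comparisons with BMPC. It drew all libraries from the same levels with a single fixed replicate spread. It therefore does not check the error rate at the spread of the real replicates. Floors of 3 reads and intervals cover counting error or sample spread only, since amplified reads are not independent molecules.

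Named were the 4 receptors, pathway genes called between genotypes, the 3 largest changes each way between cell types, the 3 genes most like each receptor and the nearest gene on each side, placed with GENCODE vM1 because the table has no coordinates. Members and lists were chosen with earlier results of these data known. A few genes, 1 of them under this naming rule, are not reported here.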

Additional observations from a re-analysis of the deposited data

How the results depend on the processing

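The numbers of receptors called between nB and GCB and between GCB and BMPC stayed within 1.5 times under every alternative run, but single calls ended. S1pr3 from nB to GCB in Dnmt3-sufficient cells was lost with a pseudocount of 0.1 (adjusted p = 0.168), no filter (0.0565), median of ratios scaling (0.0523), a fit to only the groups compared (0.119) and voom (0.0529), all in limma. S1pr1 from GCB to BMPC in Dnmt3-deficient cells was lost in the fit to the groups compared (0.0606) and with a quality weight per library (0.240). The edgeR test listed as an alternative was not run, since the deposited unit is FPKM, and voom on recovered reads stood in. Calls among S1pr1, S1pr2 and S1pr3 from nB to BMPC went from 2 to 1 in Dnmt3-sufficient cells in a fit to only the groups compared or with a quality weight per library, and from 2 to 1 in Dnmt3-deficient cells with the weight. Leaving out 1 library gave 1 to 3 such calls in Dnmt3-sufficient cells.

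Pathway calls between genotypes in BMPC, 2 in the report, were 1 with no filter, with median of ratios scaling, with sex as a covariate and with voom, and 0 in the fit to the groups compared and with the weight (1 to 3 without 1 library). Over all genes that comparison gave 459 calls, against 0 in the fit to the groups compared and 18 with the weight. From nB to GCB they were 19 in Dnmt3-sufficient cells in the fit to the groups compared and 7 in Dnmt3-deficient cells with a pseudocount of 0.1, and 6 to 8 there without 1 library. All genes went from 1631 to 2653 and from 1489 to 1149 calls under those 2 settings. From nB to BMPC in Dnmt3-sufficient cells they were 14 in the fit to the groups compared, where all genes went from 4299 to 2806, and 16 to 21 without 1 library. The Mfsd2b call there ended with a pseudocount of 0.1 (0.0555), no filter (0.0822), median of ratios scaling (0.0530), the fit to the groups compared (0.138), sex (0.0689) and voom (0.0539). The Klf2 call from nB to GCB ended with the pseudocount (0.259), no filter (0.0592) and voom (0.0673), and that of Sphk2 between genotypes in BMPC under 6 settings (adjusted p from 0.0528 to 0.779). The S1pr4 difference between genotypes in BMPC, 3.63, was 6.11 with a pseudocount of 0.1, 3.83 with median of ratios scaling and 6.52 with voom, and 3.57 to 3.72 without 1 library.

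Values that changed sign were all uncalled: without 1 library, S1pr1 between genotypes ranged from -0.010 to 0.21 in nB, from -0.27 to 1.19 in GCB and from -0.39 to 1.07 in its interaction (also -0.020), S1pr3 in nB from -0.25 to 1.12 and S1pr4 in GCB from -0.65 to 0.25, and S1pr2 from nB to BMPC in Dnmt3-deficient cells was 0.026 with voom. The cause was not tested. With the GCB titles as a replicate block, 0 of 4 receptors and 0 of 46 pathway genes were called between genotypes. Deviations of GCB libraries sharing a title part correlated at -8.06e-05, -0.0171 and 0.0257 over all tested genes, and the libraries were not treated as paired. A pairing that touched few genes would not show in these correlations. BMPC depth limits what can be seen there: 3 reads were worth 0.353 FPKM of S1pr2 on average in Dnmt3-sufficient and 0.636 in Dnmt3-deficient libraries.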
